A study of Caenorhabditis elegans with 2 samples.

Results

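Vesicles that leave the endoplasmic reticulum (ER) are caught near the Golgi by a tether and then fuse through SNARE proteins. Peaks of the transcription factor XBP-1 were examined at 7 genes of this step in Caenorhabditis elegans: the SNAREs syx-5, memb-1, memb-2, gos-28, sec-22 and ykt-6 and the tether gene uso-1. They were chosen by name for their known role in ER-Golgi traffic, but with earlier results of these data known. They are 7 of the 19973 nuclear protein-coding genes of the annotation. All 7 names matched the annotation. At 2 of them, syx-5 and memb-1, XBP-1 peaks stood at ranks 10 and 11 of 3641 by signal. At sec-22 and uso-1 the peaks stood near the end of that list, memb-2 had only weaker regions, gos-28 had weak regions that did not coincide between replicates, and ykt-6 had none. The peak at rank 10 lay closer to the start of the divergent gene F55A11.1 than to that of syx-5, so it cannot be given to syx-5 alone.

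The data came from chromatin immunoprecipitation with sequencing (ChIP-seq) on whole L1 larvae, the first larval stage. There was 1 group, with 2 biological replicates. All animals were hermaphrodites of strain OP506, whose labelled genotype is unc-119(tm4063) III; wgIs506. The transgene wgIs506 makes XBP-1 fused at its C-terminus to GFP-FLAG. Tagged protein from a transgene, in animals whose label also lists this unc-119 allele, was thus what the antibody could pull down. The description names an anti-GFP antibody, while another label field gives xbp-1. Larvae were taken 6 h after synchronization by bleaching and starvation, and chromatin was broken by sonication. No untreated, untagged or second-genotype group was analysed here, and whole animals mix all cell types, so neither a response to stress nor a tissue can be read from these values.

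SNAREs are short membrane proteins that zip into a bundle of helices and pull a vesicle against its target. Each bundle takes helices of the Qa, Qb, Qc and R kinds. In yeast and mammals, syntaxin 5 is the Qa helix of traffic into the early Golgi, membrin and GOS28 are Qb helices, SEC22 and YKT6 are R helices, and the coiled-coil protein Uso1 tethers the vesicle beforehand. XBP-1 is a basic leucine zipper (bZIP) factor whose mRNA must be spliced by the ER stress sensor IRE-1 before active protein is made. In yeast and mammals this branch of the unfolded protein response acts on many genes of the secretory pathway.

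The DNA under the members' summits is shown first because the positions and words described further on refer to it. A summit is the base of highest signal that the authors' caller gave for a region. All runs are the plus strand of WBcel235, the same assembly as ce11, from the RefSeq sequence, written 5′ to 3′, and capitals mark the word ACGT, the centre of many bZIP sites, with the bases that extend it to a searched word. The first 4 runs span the strongest thresholded summit of each gene, and the last spans the replicate 1 summit of memb-2, kept to 30 bases because it lies in an annotated 5′ UTR.
syx-5, V:11764499-11764619, summit at base 71: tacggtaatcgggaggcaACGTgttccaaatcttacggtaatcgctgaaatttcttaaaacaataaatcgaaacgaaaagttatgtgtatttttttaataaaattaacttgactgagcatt
memb-1, X:9441646-9441766, summit at base 61: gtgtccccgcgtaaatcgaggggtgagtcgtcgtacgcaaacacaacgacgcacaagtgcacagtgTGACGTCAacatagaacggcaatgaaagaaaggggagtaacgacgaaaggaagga
sec-22, X:1035287-1035376, summit at base 15: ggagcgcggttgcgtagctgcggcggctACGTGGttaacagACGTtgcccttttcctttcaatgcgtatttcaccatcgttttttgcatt
uso-1, IV:13453685-13453795, summit at base 56: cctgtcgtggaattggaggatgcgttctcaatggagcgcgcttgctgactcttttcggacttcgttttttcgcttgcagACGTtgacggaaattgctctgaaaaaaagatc
memb-2, V:5619345-5619374, replicate 1 summit at base 11: ttACGTtttttaTGACGTGGaacggaatcg

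Regions came in 4 deposited lists. The thresholded list, which the authors derived from both replicates by the irreproducible discovery rate (a measure of how well ranks repeat), held 3641 peaks. The relaxed lists, meant to hold background as well as peaks, held 26088 regions for the pooled replicates, 30000 for replicate 1 and 28535 for replicate 2. Each region carries a signal value from the authors' caller whose scale is not given in the sources used here, so it served to rank regions within 1 list, with rank 1 the strongest. Thresholded signal ran from 73.3 to 34888.2 with a median of 147.6. Read totals are not part of the lists. The sequencing depth is therefore unknown, and no counting interval can be given. The promoter window of a gene reached from 1000 bp before to 200 bp past each of its transcript starts. A summit inside the window was assigned to the gene, also where it fell in the windows of several genes.

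Of the 7 genes, 4 had a thresholded promoter summit (syx-5, memb-1, sec-22 and uso-1), where 15.5% of all protein-coding genes had one. Counts in the relaxed lists say less, because these lists touch many genes. In the pooled list 5 of 7 genes had a promoter summit, beside 41.0% of all genes. In replicate 1 the count was 6 of 7 beside 43.4%, in replicate 2 it was 6 of 7 beside 43.5%, and 6 of 7 had a summit in both replicates beside 32.9%. The strength of the 4 thresholded genes was split rather than uniformly high. Their median best rank was 1483.5, against 1449.0 over the 3095 coding genes with a thresholded promoter summit, and it falls in the gap between a pair of genes at ranks 10 and 11 and a pair at ranks 2956 and 3459. Among the 100 strongest peaks, which serve 0.591% of all coding genes, were those of syx-5 and memb-1. With 1 group and 7 genes chosen with earlier results of these data known, no test was made.

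**Figure D1:**
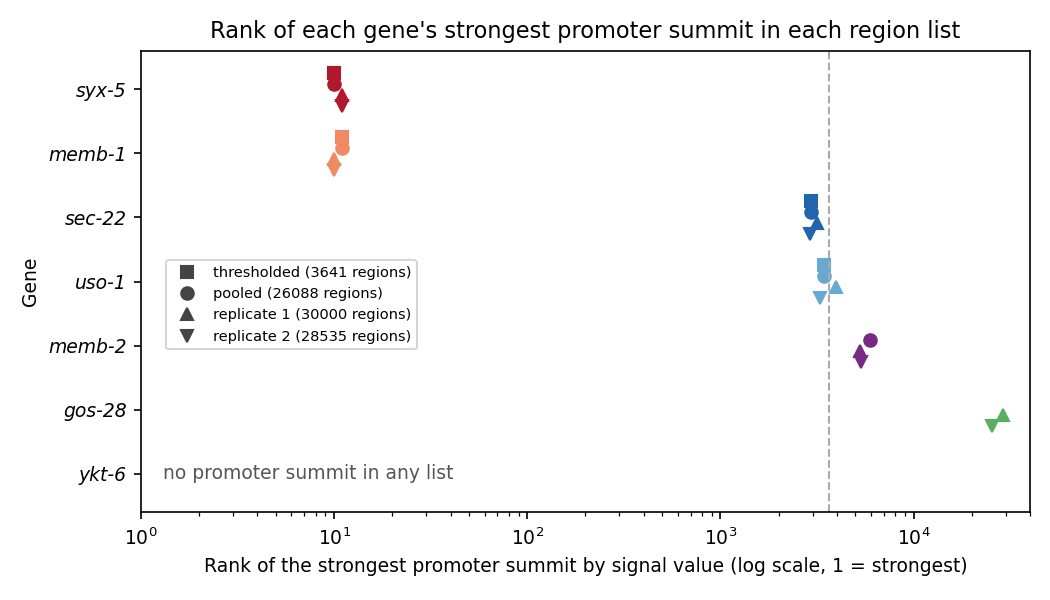
Rank of the strongest promoter summit of each gene (rows) by signal value (log scale, rank 1 strongest) in the thresholded list (squares), the pooled list (circles), replicate 1 (upward triangles) and replicate 2 (downward triangles). The dashed line marks rank 3641, the length of the thresholded list; syx-5 and memb-1 sit at ranks 10 and 11 in every list, sec-22 and uso-1 lie close to the line, memb-2 and gos-28 lie beyond it, and ykt-6 has no promoter summit.

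The Qa-SNARE gene syx-5 (WBGene00006373, V:11764904-11767222, plus strand) had the peak with the highest thresholded signal of the 7. The thresholded peak spanned V:11764345-11764870 and had a signal of 3033.6 at rank 10, within the top 0.275% of the list. Its summit, at 11764569, lay 335 bp upstream of the start in intergenic sequence. In replicate 1 the signal was 1530.5 at rank 11, and in replicate 2 it was 1514.0 at rank 11, with both summits at the same base, 11764568. The peak immediately above it in the thresholded list, with a signal of 3537.3, lay at hsp-4, which encodes the ER chaperone BiP and is a classical target of the unfolded protein response in worms.

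The syx-5 peak stood in a promoter region shared with another gene. A gap of 518 bp separates syx-5 from the divergent gene F55A11.1 on the minus strand. The summit lay 184 bp upstream of the F55A11.1 start, closer to it than to syx-5. The peak therefore cannot be given to either gene from position alone. A weaker thresholded summit at 11764783, nearer to syx-5, lay 121 bp upstream of the syx-5 start and 398 bp upstream of F55A11.1. It had a signal of 80.7 at rank 3311, next to the peaks at ranks 3310 (atgp-1) and 3312 (no promoter gene). Its region, V:11764345-11764873, began at the same base as that of the main peak, a property of 37 of the 3641 thresholded peaks (1.02%). Replicate 1 gave this summit a signal of 77.2 at rank 1788, and replicate 2 gave no separate summit there. The replicate 2 region of the main peak, V:11764383-11764829, did cover that base. Of the single replicates, only 1 library thus gave it as a summit of its own.

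Membrin has a pair of genes in the worm, and their peaks were far apart in strength. At memb-1 (WBGene00007128, X:9440079-9441571, minus strand) the thresholded peak spanned X:9441447-9441968, had a signal of 3026.8 and took rank 11, the place after syx-5. Its summit, at 9441706, lay 135 bp upstream of the start in intergenic sequence. Replicate 1 gave a signal of 1562.0 at rank 10, and replicate 2 gave 1528.9 at rank 10, with summits at 9441703 and 9441708. The peak lay at no other gene: a gap of 5072 bp separates memb-1 from the next gene upstream, ZK899.1, on the other strand. The order of syx-5 and memb-1 turned round between the thresholded list and the single replicates, so the pair cannot be ordered. The peak after them, at rank 12 with a signal of 2772.7, lay at let-607, which encodes another bZIP factor.

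At memb-2 (WBGene00019757, V:5618259-5620140, minus strand) there was no thresholded promoter summit, and the nearest thresholded summit lay 22642 bp away. This gene has 3 annotated starts, at 5620140, 5619458 and 5619201, and its relaxed regions lay at the inner and outer ones. The stronger pooled region, V:5619317-5619692, had a signal of 43.7 at rank 5959. Its summit at 5619505 lay 47 bp upstream of the start at 5619458, within an intron of the longer transcript. A weaker pooled summit at 5620103, with a signal of 21.5 at rank 16290, lay 37 bp downstream of the outermost start in the 5′ UTR. The replicates ranked the inner region almost alike but placed its summit differently. Replicate 1 had a signal of 26.0 at rank 5308 with the summit at 5619355, and replicate 2 had 25.5 at rank 5366 with the summit at 5619502. The gap of 147 bp exceeded the 61 bp within which 90% of matched thresholded peaks fell, though memb-2 itself is not among those peaks.

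The other Qb-SNARE gene, gos-28 (WBGene00017273, III:7347234-7349175, minus strand), had no thresholded or pooled promoter summit, and the nearest summit of either list lay 8390 bp away. Each replicate had a region near the bottom of its list. Replicate 1 placed one with a signal of 7.69 at rank 29043, 652 bp upstream of the start in an intron of F08F8.9, the same-strand gene that ends 115 bp before gos-28. Replicate 2 placed one with a signal of 10.4 at rank 25522, 119 bp downstream of the start in an intron of gos-28. The summits were 771 bp apart and the regions did not overlap, so the 6 of 7 genes with a summit in both replicates included gos-28 without a shared region. F08F8.9 had no promoter summit in any of the 4 lists.

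**Figure D2:**
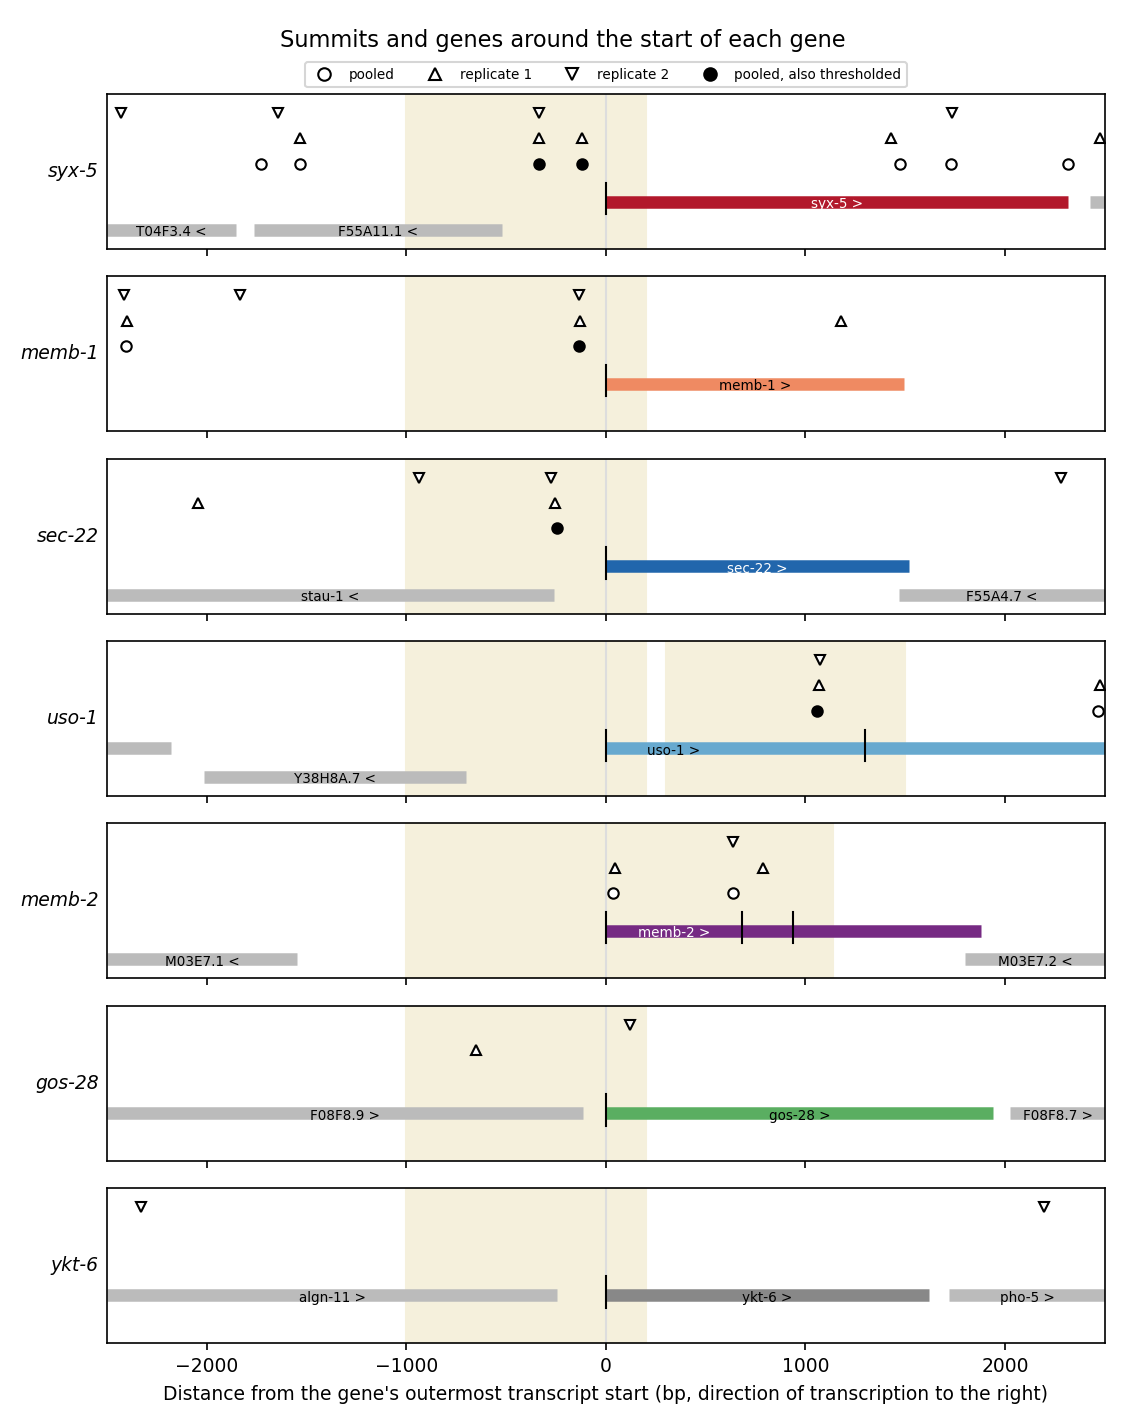
Summits and genes within 2500 bp of the outermost start of each gene (horizontal axis, bp, transcription to the right), with shading for the promoter window of 1000 bp upstream to 200 bp downstream of each start and black ticks for starts. Circles are pooled summits (filled where also thresholded), upward triangles replicate 1 and downward triangles replicate 2, without regard to strength; coloured bars are the 7 genes, grey bars their neighbours, and arrows in the labels give direction. The syx-5 and sec-22 summits lie between divergent genes, memb-1 stands alone, the uso-1 summit lies inside the gene before its inner start, and the ykt-6 window is empty.

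Of the R-SNARE genes, sec-22 had a thresholded peak and ykt-6 did not, but the sec-22 peak was far weaker than that of memb-1. At sec-22 (WBGene00018853, X:1035548-1037066, plus strand) the peak spanned X:1035113-1035488 and had a signal of 90.9 at rank 2956 of 3641. Its summit, at 1035301, lay 247 bp upstream of sec-22 in intergenic sequence, but only 15 bp upstream of the divergent gene stau-1, which encodes a double-stranded RNA-binding protein of the Staufen family. A gap of 261 bp separates the genes, so this peak too was shared, and it lay much closer to stau-1. Replicate 1 had a signal of 44.1 at rank 3161 with the summit 7 bp upstream of stau-1. Replicate 2 had a signal of 45.6 at rank 2909 with the summit 11 bp downstream of that start, in the 5′ UTR of stau-1. A further weak region in replicate 2, with a signal of 11.97 at rank 19716, lay 938 bp upstream of sec-22 and had no counterpart in the promoter window in the other lists. The neighbours of the sec-22 peak by rank were at aars-2 (rank 2955) and at nol-16 and fitm-2 (rank 2957).

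The second R-SNARE gene, ykt-6 (WBGene00015164, III:7285983-7287603, minus strand), was the only one of the 7 with no promoter summit in any of the 4 lists. The nearest summit to its start was 8753 bp away in the thresholded list, 3818 bp in the pooled list, 3829 bp in replicate 1 and 2197 bp in replicate 2. On the same strand, 243 bp before ykt-6, ends algn-11, which is named for a mannosyltransferase of N-glycan synthesis. That gene had a pooled summit 859 bp upstream of its own start, with a signal of 29.6 at rank 9737, but no thresholded one. Replicate 1 gave it a signal of 15.1 at rank 10659 and replicate 2 a signal of 14.4 at rank 13793. Replicate 2 also had a summit 9 bp upstream of the algn-11 start, with a signal of 11.6 at rank 20893.

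The tether gene uso-1 (WBGene00010713, IV:13445390-13454798, minus strand) had a peak inside the gene. It spanned IV:13453552-13453927, with a signal of 77.0 at rank 3459, close to the lowest thresholded signal of 73.3. The summit at 13453740 lay in a coding exon of the longer transcript, which starts at 13454798, and 241 bp upstream of the inner start at 13453499. Only this inner start brought the peak into a promoter window. Replicate 1 had a signal of 34.7 at rank 3956 and replicate 2 had 40.8 at rank 3267, with summits 231 and 228 bp upstream of the inner start. No other gene shared the peak, and its neighbours by rank were at srh-2 (rank 3458) and srlf-1 (rank 3460).

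Replicates placed the 4 thresholded genes closely. Between replicates the summits of the strongest peaks differed by 0 bp at syx-5, 5 bp at memb-1, 18 bp at sec-22 and 3 bp at uso-1. Over the 3639 thresholded peaks with an overlapping region in both replicates, the median gap was 15 bp, and it was 5 bp over the 100 strongest. The larger rank divided by the smaller was 1.00 at syx-5 and memb-1, 1.09 at sec-22 and 1.21 at uso-1, beside a median of 1.22 over all matched peaks. Each of the 4 thus varied between libraries by no more than the median peak in rank, and sec-22 alone by more than the median in position. Over the matched peaks ranked after 1820, among which sec-22 and uso-1 fall, the median gap was 23 bp and the median rank ratio 1.26. The thresholded list was itself selected by the irreproducible discovery rate. Closeness in rank may thus be partly built in and is no independent sign of agreement. Rank ratios were 1.01 at memb-2 and 1.14 at gos-28, where summits were 147 and 771 bp apart.

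**Figure D3:**
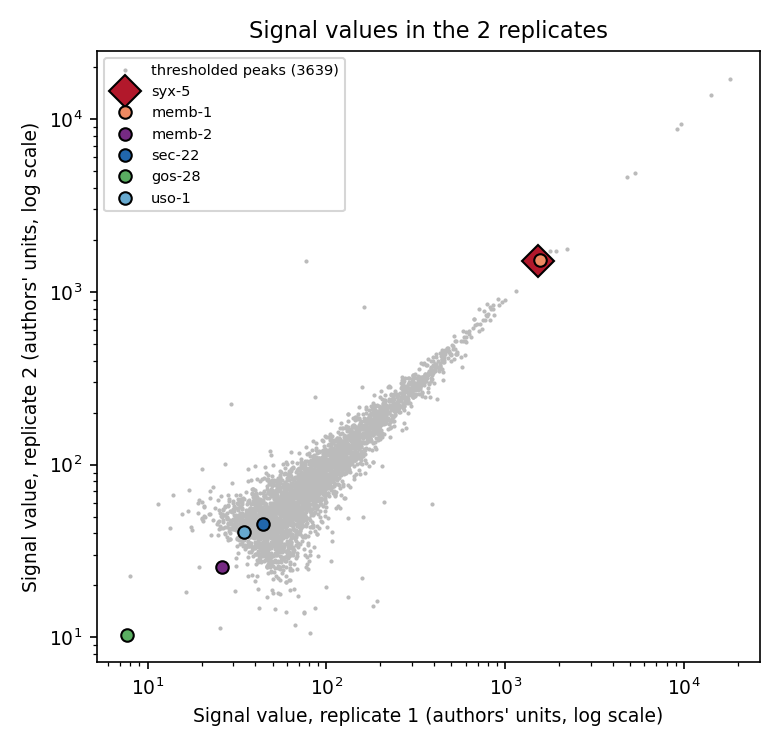
Signal value of the strongest promoter summit of 6 genes in replicate 1 (horizontal) and replicate 2 (vertical), both in the authors' units on log scales, over 3639 thresholded peaks matched in both replicates (grey). The syx-5 diamond and the memb-1 circle coincide near 1500 in both replicates, sec-22 and uso-1 lie in the lower part of the cloud, and memb-2 and gos-28, which are not thresholded, lie below it; the grey point at 77.2 and 1514.0 is the weaker syx-5 summit, for which replicate 2 has no summit of its own.

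The genes upstream of the members bear on how far a peak near the outermost start can be assigned. Of coding genes with a divergent neighbour starting within 500 bp, 42.6% (783 of 1840) had a thresholded promoter summit, and sec-22 belongs to these. Of genes with a more distant divergent neighbour the share was 17.6% (1276 of 7231), and syx-5, memb-1, memb-2 and uso-1 belong here. The class rests on the gene before the outermost start, whereas the uso-1 summit and the stronger memb-2 region lay at inner starts. The gap at syx-5, 518 bp, is only just past the limit, so its class depends on where the limit was set. Where the upstream gene lay on the same strand within 500 bp the share was 11.2% (403 of 3612), and this is the arrangement of ykt-6 and gos-28, both without a thresholded summit. These classes were drawn up after the members' peaks had been seen. When each summit was given only to the gene with the nearest start, sec-22 lost its peak to stau-1 and syx-5 kept only the weaker summit at rank 3311, leaving 3 of 7 genes.

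Short words, among them words that bZIP factors bind, were looked for on both strands within 50 bp of each summit. TGACGTG, the core of the unfolded protein response element, was in none of the 5 thresholded summit windows of the members (the strongest summits of the 4 genes and the weaker syx-5 summit). It was in 3.43% of all 3641 thresholded windows, in 14 of the 100 strongest, and in 0.876% of windows of the same length placed 250 to 150 bp upstream of coding starts. With a share this low, a count of 0 in 5 says little about these genes. The whole regions of those summits held no copy either.

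The full bZIP word TGACGTCA, the cyclic AMP response element, was found at memb-1. It began 6 bp from the summit, at X:9441712-9441719. This word was in 1.68% of thresholded windows (61 of 3641), in 4 of the 100 strongest and in 0.692% of the upstream windows. At sec-22 the word CCACGT, read on the plus strand as ACGTGG, lay 14 bp from the summit, beside 5.93% of thresholded windows, and a separate ACGT lay 27 bp away. At uso-1 an ACGT lay 24 bp from the summit. ACGT alone was in 30.1% of thresholded windows and 19.6% of upstream windows, so its presence sets these genes little apart. TGACGTCA contains ACGT, and CCACGT contains it too.

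The main syx-5 summit had none of the 7 words within 50 bp. Its nearest ACGT lay 49 bp away at its near end and ran past the edge of the window. Besides TGACGTG and TGACGTCA, those 7 words were CCACGT, the bare ACGT, the E-box CACGTG, the repeat GAGAGAGA and the CCAAT box. Within 50 bp of the summit, G and C made up 26.7% at syx-5, where the median of thresholded windows was 47.5% and 90% of them lay above 37.6%. The windows of memb-1 (50.5%), uso-1 (47.5%) and sec-22 (57.4%) were at or above that median. That of sec-22 was also above 56.4%, below which 90% of thresholded windows lay. Within 200 bp, a window added after the data had been seen, the share was 34.9% at syx-5 and 38.2% at memb-1, near each other and near the median of 38.7% over all thresholded peaks, and 27.9% at uso-1 and 40.6% at sec-22. In the wider window uso-1, not syx-5, had the lowest share of the 4, and 90% of thresholded windows lay above 31.7% there.

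At memb-2 the word TGACGTG was present although no thresholded peak was. It lay at V:5619357-5619363, 2 bp from the replicate 1 summit but 142 bp from the pooled summit and 139 bp from the replicate 2 summit. A TGACGTCA lay at V:5619335-5619342, 13 bp from the replicate 1 summit on its other side. Over whole promoter windows, memb-2 was the only member with TGACGTG, which 11.4% of all coding genes hold, and memb-1 and memb-2 each held 1 TGACGTCA, which 7.26% hold. CCACGT, which 32.7% hold, was present once at memb-2, sec-22 and ykt-6 and 2 times at uso-1. With 3 starts at memb-2 and 2 at uso-1, more sequence was searched at these genes than at the members with 1 start. The TGACGTG and TGACGTCA of memb-2 fell in its windows only through the inner starts. The whole-window search was chosen after the summit windows had been seen.

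Other genes of membrane fusion and of the vesicle coats gave the setting for these peaks, and their counts stand beside the same share of 15.5% over all coding genes. Among the SNAREs that act with the 7 genes or in return traffic to the ER, 2 of 4 had a thresholded promoter summit. These were nbet-1 (rank 697, signal 305.7), named for the yeast Qc-SNARE Bet1, and use-1 (rank 1177), while syx-18 and sec-20 had none. Of 19 SNAREs of later steps, such as synaptic, endosomal and plasma membrane fusion, 1 (5.26%) had such a summit. It was snb-1, the synaptobrevin gene, at rank 1279, and the syntaxin genes unc-64 and syx-2 were among those without one. With a search 2000 bp upstream the count was 5 of 19 (26.3%) and the share over all coding genes 19.4%, so this list lay below the share of all genes in the main window and above it in the wider one.

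All 7 genes for proteins that act on SNAREs had a thresholded promoter summit, with a median best rank of 2434. The strongest was at sly-1, the gene for the Sec1-family protein that binds syntaxin 5 in yeast and mammals, at rank 146 with a signal of 688.5. It was followed by nsf-1 (rank 413), the ATPase that takes spent SNARE bundles apart, and snap-1 (rank 958), its adaptor. Each of these 3 summits also served a neighbour: sip-1, adr-1 and spr-1.

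Tethers other than uso-1 had a thresholded promoter summit in 7 of 22 genes (31.8%). The strongest were cogc-2 (rank 600) and cogc-3 (rank 1516) of the Golgi COG complex and trpp-10 (rank 1617) of the TRAPP complex, and cogc-1 and cogc-4 had none. Of the COPII coat, which forms vesicles at the ER, 8 of 9 genes had one, with a median best rank of 2035.5. These included sec-24.1 (rank 210), sar-1 (rank 254) and npp-20 (rank 1191), but not sec-24.2. Of the COPI coat, which works at the Golgi, 6 of 7 genes had one, with copz-1 (rank 350), copd-1 (rank 387) and copb-2 (rank 1289) strongest and copb-1 without. Of the p24 cargo receptors and KDEL receptors, 7 of 9 genes had one, among them erd-2.1 (rank 15, signal 1810.9), tmed-10 (rank 179) and sel-9 (rank 743), but not tmed-13 or erd-2.2.

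Across the 8 lists, the strongest peaks were at memb-1 and in the promoter region that syx-5 shares with F55A11.1, followed by the KDEL receptor gene erd-2.1 at rank 15. Among genes numbered as pairs in these lists, erd-2.1 but not erd-2.2, and sec-24.1 but not sec-24.2, held a thresholded summit, as memb-1 did and memb-2 did not, while vps-33.1 (rank 2845) and vps-33.2 (rank 2434) both held one. TGACGTG, found in 3.43% of all thresholded windows, stood within 50 bp of the summit at 2 of 8 distinct COPII summits (sar-1 and sec-31), 2 of 7 of the p24 and KDEL receptor summits (erd-2.1 and sel-9), 1 of 7 SNARE regulator summits (nsf-1), 1 of 6 COPI summits (cope-1) and 1 of 7 tether summits (smgl-1). It stood at 0 of 2 summits of the SNARE partners and 0 of 1 of the later SNAREs. TGACGTCA stood at memb-1 and at none of the other lists' summits. Outside the list of later SNAREs, each list had summits shared with a neighbouring gene, so these counts describe promoters rather than independent genes.

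**Figure D4:**
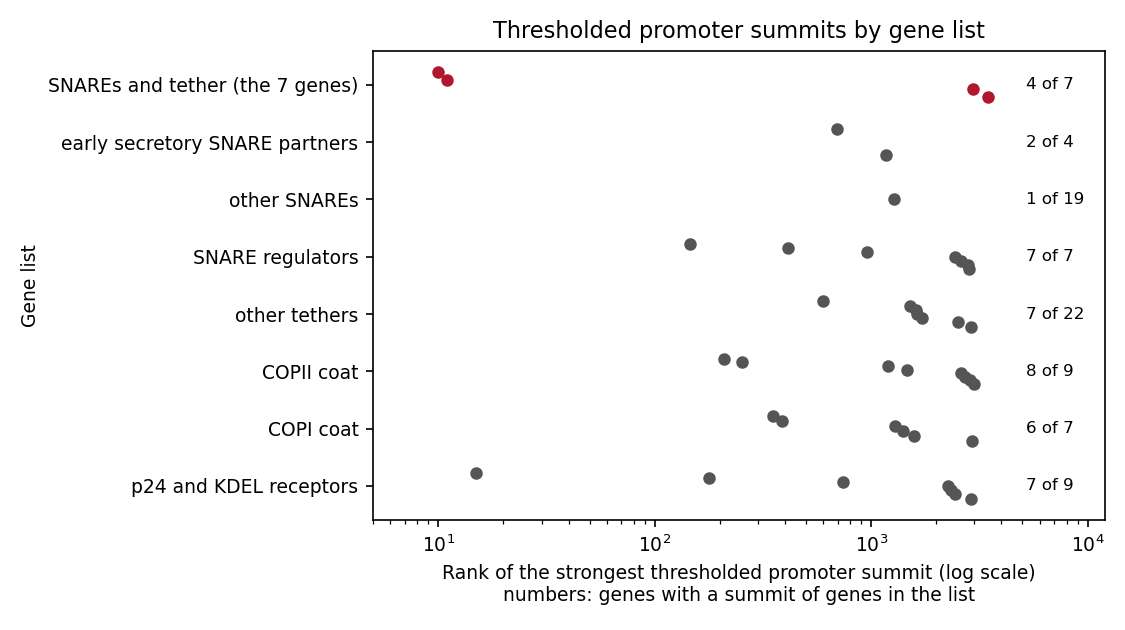
Rank of the strongest thresholded promoter summit by signal value (horizontal axis, log scale) for each gene that has one, by gene list (rows), with the number of genes with a summit out of all genes in the list at the right. The 7 genes described here (red) fall into a pair at ranks 10 and 11 and a pair at 2956 and 3459, and the other lists (grey) spread from rank 15 to rank 2994.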

How the data were processed

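Per the labels, ChIP-seq of GFP-tagged XBP-1 was done on 2 biological replicates of 1 group. Per the deposited file lists, each relaxed region list was made from alignments together with a further file that the control-normalized tracks also draw on, and the thresholded list from the relaxed ones. The aligner and the peak caller, with their versions, are not stated in the sources used here. The deposited lists give a signal value per region, in a unit the authors do not state, and the position of the summit. Only the ce11 lists were used. Depth per sample is unknown, since no read totals are given, so no counting interval applies.

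Regions were ranked by signal within a list, and summits were assigned to genes of Ensembl release 115 by promoter window; a match between replicates was the overlapping region (at least 1 bp) with the nearest summit. Other lists held 80 names, of which 3 were unmatched. The members, lists, words and alternatives were chosen with earlier results of these data known. Named genes are the members, genes sharing their summits, genes at the ranks beside them, and per other list up to 3 genes with the strongest summit and up to 2 without; genes with TGACGTG at their summit and the upstream genes were named after their values were seen. Assignment was tested on simulated summits. Alternatives were the window, the nearest start, any overlap of region and window, stronger peaks, other word windows, other background genes and each replicate left out, for which the strongest regions of the other replicate were taken, as many as the thresholded list holds. Python 3.11.15, pandas 2.3.3, NumPy 2.4.6 and matplotlib 3.10.9 were used.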

Additional observations from a re-analysis of the deposited data

How the results depend on the processing

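Of 66 alternative values, 58 stayed within 1.5 times the value reported, and 8 moved farther, among them the G and C content at uso-1 (27.9% within 200 bp of the summit), chosen after seeing the data. Some of the 58 carry no information. The thresholded ranks of the members recur unchanged in the pooled list, and a word search within 25 bp lies inside the one within 50 bp. The rank at syx-5 was not among the values redone with the nearest start only, where its summit is the one at rank 3311. Keeping the 1820 strongest thresholded peaks left 2 of the 7 genes (syx-5 and memb-1), 3 of the 7 SNARE regulators and 9.29% of coding genes. Other SNAREs rose from 1 of 19 to 5 (26.3%) with 2000 bp upstream, where the share of all coding genes was 19.4%, and to 2 with any overlap of region and window. Other tethers fell from 7 of 22 to 4 with the nearest start only. Over all annotated genes the share was 9.74% in place of 15.5%. Without replicate 1 the count was 4 of 7 and without replicate 2 it was 3 of 7, where uso-1, at rank 3956 in replicate 1, dropped out. With the nearest start only, 4 of 7 genes had a pooled summit and 4 had a summit in both replicates. TGACGTG was at 0 of 5 summits under every window tried. No paired analysis was possible because there is 1 group. Depth is unknown, so how far it limits the absence of regions at ykt-6 was not tested.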
